A study of Mus musculus with 6 samples.

Results

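Long unbroken stretches of chromatin state 17 were taken from an mm10 mouse chromatin map, which gives every 200 bp bin 1 of 18 state numbers. Members were chosen by state and length, as the segments that carried state 17 over 10 kb or more on chromosomes 1 to 19. There were 8012 of them among the 850831 segments of the whole map, and they made up 6.86% of the 116746 autosomal state 17 segments and 27.2% of the bases in that state. State number and length are therefore given as description.

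The study asked how HIRA, a chaperone that places the histone variant H3.3 into chromatin outside replication, acts in hematopoietic stem cells (HSCs) of mouse bone marrow. Its 6 libraries were 2 H3.3 ChIP and 1 input library from HIRA KO cells, and 2 H3.3 ChIP and 1 input library from WT cells, all of C57BL/6 mice whose ages are not given. Per the labels, Hira was conditionally deleted in the hematopoietic system by 2 intraperitoneal doses of 20 ug of poly(I:C), a synthetic double-stranded RNA that also sets off an interferon response, and HSC sorting followed 7 days after dosing began. The same protocol is given for all groups, and neither the Cre driver nor a separate treatment of WT mice is stated. The map is tied to the WT H3.3 ChIP group by its file name only. It holds state numbers without counts, replicates or a column for the HIRA KO, which was not analysed here, so no value below is a test between genotypes and the depth is unknown. Without levels, the cell type could not be checked by marker expression.

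A chromatin state map of this kind is built by a hidden Markov model, which gives each bin the state that best accounts for its marks and for its neighbours. State numbers have no fixed biological name, so they are described here by where they lay. H3.3, unlike the replication-coupled H3 variants, is placed at promoters, enhancers and bodies of active genes throughout the cell cycle. HSCs carry the genes of all blood lineages in a mostly silent form, and many of them are switched on only during late maturation, as are the granule proteins of neutrophils.

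The promoters of 4 neutrophil granule and calcium-binding protein genes are shown because each of these genes lay wholly inside a member. They are windows from 250 bases before to 50 bases after the start, from RefSeq on GRCm38.p6, the assembly of mm10. Capitals mark TATAAA, the letters of a TATA box, or TTGCNNAA, the core letters of a C/EBP site, found on either strand. The promoters of Ccl17 and Ccl22, chemokine genes also wholly inside members, were searched too, held neither motif and are not shown. Ngp, at chr9:110419558-110419857 on the plus strand, encodes neutrophilic granule protein. S100a8, at chr3:90668821-90669120 on the plus strand, encodes a calcium-binding subunit of calprotectin. Lcn2, at chr2:32387690-32387989 on the minus strand, encodes the iron-scavenging lipocalin of specific granules. Fcnb, at chr2:28084829-28085128 on the minus strand, encodes the lectin ficolin B.
Ngp: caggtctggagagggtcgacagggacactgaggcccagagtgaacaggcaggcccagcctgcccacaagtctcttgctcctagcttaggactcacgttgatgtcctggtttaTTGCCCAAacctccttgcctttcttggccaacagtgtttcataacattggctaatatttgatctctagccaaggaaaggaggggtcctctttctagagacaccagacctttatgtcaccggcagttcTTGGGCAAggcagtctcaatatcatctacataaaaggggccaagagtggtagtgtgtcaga
S100a8: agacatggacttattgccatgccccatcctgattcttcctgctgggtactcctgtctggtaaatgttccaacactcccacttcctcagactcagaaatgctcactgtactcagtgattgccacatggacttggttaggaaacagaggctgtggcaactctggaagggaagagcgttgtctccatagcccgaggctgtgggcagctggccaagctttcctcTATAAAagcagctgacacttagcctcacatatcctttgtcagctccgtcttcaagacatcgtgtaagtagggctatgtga
Lcn2: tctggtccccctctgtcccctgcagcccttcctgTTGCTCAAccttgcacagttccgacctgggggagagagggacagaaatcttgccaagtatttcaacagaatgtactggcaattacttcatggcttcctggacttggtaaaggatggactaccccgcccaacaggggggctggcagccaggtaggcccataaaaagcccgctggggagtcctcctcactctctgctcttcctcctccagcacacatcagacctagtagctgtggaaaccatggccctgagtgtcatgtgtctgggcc
Fcnb: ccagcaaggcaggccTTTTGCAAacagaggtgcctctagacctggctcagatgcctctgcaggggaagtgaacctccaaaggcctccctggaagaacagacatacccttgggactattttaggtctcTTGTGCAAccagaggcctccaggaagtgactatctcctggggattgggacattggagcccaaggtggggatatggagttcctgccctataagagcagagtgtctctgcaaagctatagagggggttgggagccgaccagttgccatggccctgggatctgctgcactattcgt
These windows held 3 CpGs (Ngp), 4 (S100a8), 3 (Lcn2) and 2 (Fcnb). The median was 4 in windows whose start lay in a member, in a shorter state 17 segment or in state 16. It was 2 for starts in state 18, 14 over all windows and 22 for starts in states 3 to 6. TTGCNNAA was in 11.8% of windows whose start lay in a member and 10.3% of all windows, and TATAAA in 16.1% and 12.7%. The promoters shown were picked by gene, so their matches do not describe members in general. A letter match describes the sequence and does not show that a factor binds.

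The microRNAs of the miR-200b, miR-200a and miR-429 cluster, which in epithelial cells restrain the Zeb repressors, lay in 1 member of 10.4 kb (chr4:156052001-156062400) between state 16 segments. Their 3p strands are shown because they fall into seed groups, with the seed (bases 2 to 8) in capitals, from RefSeq. All 3 hairpins are on the minus strand.
mmu-miR-200b-3p: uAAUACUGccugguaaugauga
mmu-miR-429-3p: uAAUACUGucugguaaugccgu
mmu-miR-200a-3p: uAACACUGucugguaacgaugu
miR-200b and miR-429 share the seed AAUACUG, and miR-200a has AACACUG. In all, 39 of 919 autosomal hairpins in the table (4.24%) lay wholly inside a member, spread over 29 members, which is near the 4.41% of autosomal bases that members cover.

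The members covered 108.7 Mb, or 4.41% of autosomal bases, and state 17 as a whole covered 16.2%. Their length ran from 10 to 43.4 kb with a median of 12.2 kb and quartiles of 11 and 15 kb, whereas the 108734 shorter state 17 segments had a median of 1.8 kb. Of the members, 3669 (45.8%) were under 12 kb, 2294 (28.6%) were 12 to 15 kb, 1428 (17.8%) were 15 to 20 kb and 621 were 20 kb or longer. At the threshold, 404 segments were exactly 10 kb long and 427 were 9.8 kb long. Density averaged 3.29 ± 0.42 members per Mb (SD over 19 autosomes, which are not animals), lowest on chromosome 7 at 2.59 and highest on chromosome 19 at 4.41. Chromosome X, outside the rule, had 415 such segments at 2.43 per Mb. Over the 19 autosomes, density and the number of protein-coding genes per Mb had r = 0.28 and rho = 0.33, a description of chromosomes that share 1 map.

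What bordered a member depended on its length, and the length distribution had a step at 12 kb. The 1924 members of 10.2 to 11 kb were followed by 1636 of 11.2 to 12 kb and then by 872 of 12.2 to 13 kb. The step lay among members with state 16 on both sides. Between state 16 borders, all 2016 segments of 10 to 12 kb that carried state 17 or 18 carried state 17. At 12.2 to 15 kb, 600 of 1780 (33.7%) carried state 17 and 1180 carried state 18. At 15.2 to 20 kb 20.1% carried state 17, and at 20.2 to 50 kb 3.83% did. The shortest of the 5319 autosomal state 18 segments between state 16 borders was 12.2 kb long, and per autosome the shortest was 12.2 to 12.6 kb; on chromosome X it was 12.6 kb.

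Members between states 16 and 8, or with state 8 on both sides, had no such step. Between state 16 and state 8, all 244 segments of 20.2 to 50 kb carried state 17 and 0 carried state 18, and between state 8 on both sides all 84 did. Between states 16 and 2 the change was more gradual, at 96.6% state 17 for 10 to 12 kb, 79.0% for 12.2 to 15 kb, 36.7% for 15.2 to 20 kb and 8.21% for 20.2 to 50 kb. The 2016 members of up to 12 kb between state 16 borders were 25.2% of all members. What part the length of a gap has in its state number was not tested, and the shares of borders, genic members and gene lists are also given without those members.

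**Figure D1:**
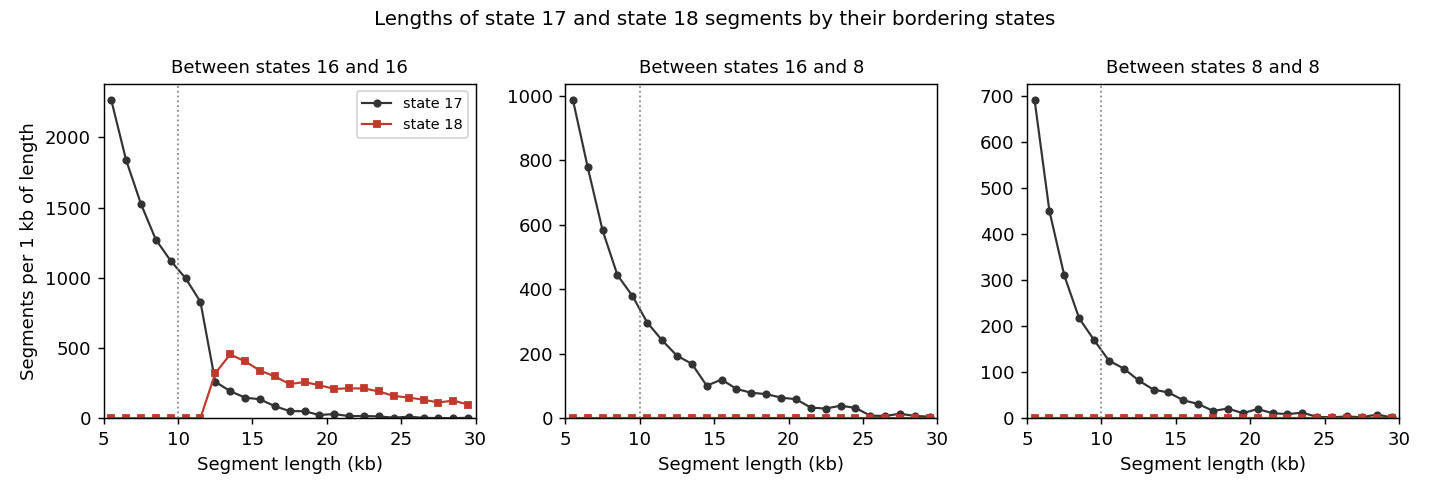
Number of autosomal segments per 1 kb of length (y axis) against segment length in kb (x axis), for state 17 and state 18, by the states on both sides. The dotted line is the 10 kb minimum of the members. Between state 16 borders, state 18 begins at 12.2 kb, where state 17 drops, and between states 16 and 8, and between state 8 on both sides, there is no state 18 at any length shown.

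Over all members, state 16 held 60.2% of the 16024 borders, state 8 held 22.3%, state 2 held 9.96% and states 3 to 6 together held 5.76%. Shorter state 17 segments had state 16 at 43.6%, state 8 at 41.4%, state 2 at 7.00% and states 3 to 6 at 4.59% of borders. Per autosome, state 16 averaged 60.1 ± 2.31% of member borders and 43.7 ± 1.74% of shorter-segment borders, and it was higher for members on 19 of 19 autosomes. State 8 averaged 22.3 ± 1.67% and 41.3 ± 1.99%, lower for members on 19 of 19. Without the members of up to 12 kb between state 16 borders, the shares were 46.8% for state 16 and 29.8% for state 8. Leaving out members picked for their state 16 borders fixes the direction of both changes. Shorter segments were not cut in this way, so their shares are not a like comparison for these values. States 10, 11 and 13 to 15 bordered no member. These states come from the same segmentation as the members, so the shares describe the map.

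Across lengths the shares of the border states turned round. State 8 fell over the length classes of shorter segments, at 61.5% of borders under 1 kb, 43.5% for 1 to 2 kb, 34.3% for 2 to 5 kb and 22.5% for 5 to 10 kb. Among members it was 16.8% for 10 to 12 kb, 23.0% for 12 to 15 kb, 27.1% for 15 to 20 kb and 41.1% for 20 kb or more. State 16 ran the other way, at 68.5%, 55.8%, 52.9% and 44.0% over the same member classes. These are shares of numbers that fell with length. Members with state 8 on both sides numbered 258 at 10 to 12 kb and 84 at 20.2 to 50 kb. Those with state 16 on both sides numbered 2016 and 100. Between state 16 borders, a further 2510 segments of 20.2 to 50 kb carried state 18 and so are not members. The segments at the borders were short, with a median of 0.6 kb, and at 60.2% of borders the segment beyond was again state 17.

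**Figure D2:**
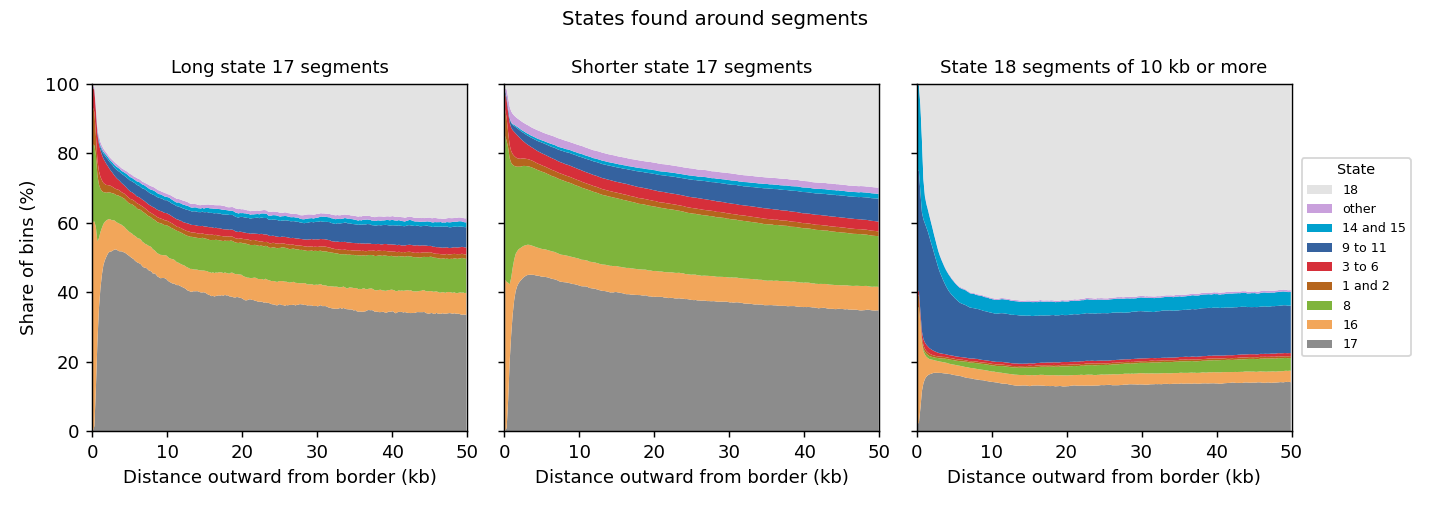
Share of 200 bp bins in each state (y axis, %) against distance outward from the segment border (x axis, kb), for long state 17 segments, shorter state 17 segments and state 18 segments of 10 kb or more. Within 5 kb of members 43.3% of bins were state 17, 19.1% state 18 and 10.7% state 8, and within 5 kb of shorter segments 36.9%, 10.2% and 26.4%.

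Farther out, state 17 still held 35.2% of bins at 20 to 50 kb from members, against 36.5% at that distance from shorter state 17 segments and 16.2% of all autosomal bases, and state 18 held 37.8% there, against 26.8% around shorter segments and 51.4% of all bases. Most members were not close to states 3 to 6, which held the starts of 52.8% of the 16457 protein-coding genes with a promoter window. The median distance from a member to the nearest bin of states 3 to 6 was 26.2 kb, against 19.2 kb for shorter state 17 segments, 10 kb for state 8 segments of 10 kb or more and 120.2 kb for state 18 segments of 10 kb or more.

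Gene bodies held more of the members than of the genome but less than of shorter state 17 segments. Of member bases, 56.6% lay in protein-coding gene records, against 66.4% for shorter segments, 97.7% for long state 8 segments, 31.7% for long state 18 segments and 39.9% for all autosomal bases. Per autosome the member share averaged 56.6 ± 3.07%, the shorter share 66.2 ± 2.27% and the share of all bases 39.9 ± 3.84% (SD, 19 autosomes). The member share was above that of all bases on 19 of 19 autosomes and above that of shorter segments on 0 of 19. Any gene base was found in 4944 members (61.7%, exact 95% interval 60.6 to 62.8, counting error only), and the share was 67.1% without the members of up to 12 kb between state 16 borders.

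The genic share followed length in the same turned manner as the share of state 8 borders. It was 86.1% under 1 kb, 76.7% for 1 to 2 kb, 69.1% for 2 to 5 kb, 58.9% for 5 to 10 kb, 53.1% for 10 to 12 kb, 55.1% for 12 to 15 kb, 58.4% for 15 to 20 kb and 66.3% for 20 kb or more. It also differed with the borders. Members between state 8 on both sides (660) had 94.6% of bases in genes, those between states 16 and 8 (1761) had 77.5%, and those between state 16 on both sides (3061) had 41.4%. Among those with state 16 on both sides, the share was 41.1% at up to 12 kb and 41.7% over 12 kb, nearly the same in both. The mix of border pairs differed between length classes, and its part in the genic share was not tested. Of the 3068 members with no protein-coding base, 1144 (37.3%) overlapped another annotated gene, and the median distance of the 3068 to a protein-coding gene was 23.4 kb.

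The bodies of long genes carried many members. Of 20560 autosomal protein-coding genes, 3075 (15%) had any base in a member. A whole member lay inside 2176 genes (10.6%), of which 829 hosted at least 2, 135 at least 5 and 22 at least 10. These hosts had a median length of 106.9 kb, against 17.6 kb for all genes, a direction that the 10 kb minimum fixes, since a host must be longer than its member. Lrmda, a gene linked to melanocyte differentiation, hosted 20 members over 289.8 kb. Wwox, a tumour suppressor gene at a common fragile site, hosted 19 members over 354.4 kb, 38.8% of the gene. Sox5 hosted 17 and Prkg1, a cGMP-dependent kinase gene, 13. Focad hosted 11, which made up 48.5% of the gene.

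Host genes more often started in states 3 to 6 than other genes of like length, most of all where genes were very long. The start lay in these states in 63.2% of hosts of 200 kb or more (427 hosts) against 20% of other genes of that length (280). For 100 to 200 kb the shares were 74.8% and 53.7%, for 50 to 100 kb 75.9% and 63.3%, and for 20 to 50 kb 68.9% and 65.1%. Genes without a promoter window were left out, and a gene counted when any of its starts lay there. Over all hosts with a window the share was 70.8% (1218 of 1720).

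Within a gene, the borders of a member differed by transcriptional direction. In 3076 members that lay within 1 gene of known strand, state 8 bordered 39.3% on the side of the 3' end and 30.4% on the side of the start. Per autosome the averages were 39.4 ± 3.87% on the 3' end side and 30.1 ± 3.25% on the start side, and the 3' end side was higher on 18 of 18 autosomes with strand data. States 3 to 6 bordered 2.08% on the 3' end side and 5.59% on the start side, with autosome averages of 2.30 ± 1.60% and 5.95 ± 2.61%, and on 0 of 18 was the 3' end side higher. State 16 bordered 50.5% on the 3' end side and 52.9% on the start side.

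**Figure D3:**
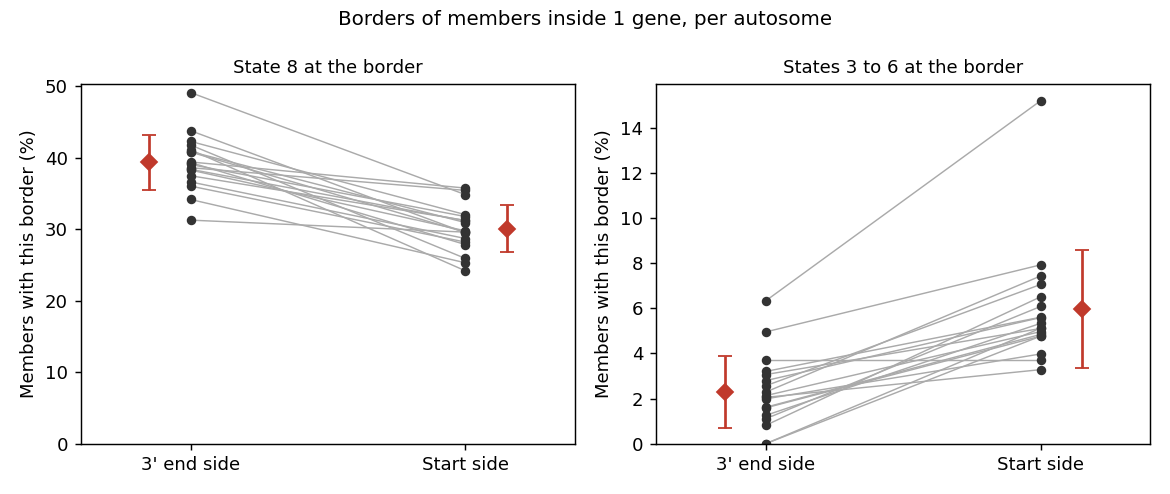
Share of members within 1 gene of known strand that had state 8 (left) or states 3 to 6 (right) at their border (y axis, %), on the 3' end side and the start side of the gene. Each dot is 1 of 18 autosomes, lines join the same autosome, and red diamonds are means ± SD; state 8 was higher on the 3' end side on 18 of 18, and states 3 to 6 on 0 of 18.

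Position along the gene moved the same borders. With genes cut into stretches of 20% from the start, 492, 742, 706, 633 and 503 members had their centre in the successive stretches. State 8 on the 3' end side was 29.3% in the stretch nearest the start, then 36.7%, 41.6%, 41.5% and, nearest the 3' end, 47.1%. States 3 to 6 on the start side were 15.2% in the stretch nearest the start, then 6.06%, 4.11%, 2.05% and 1.99%.

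Gene ends fell in members less often at the start than at the 3' end. Either end of 1144 of 20560 genes (5.56%) lay in a member. Of 770 genes with known strand and only 1 end in a member, the 3' end was inside in 584 (75.8%) and the start in 186 (24.2%). Among the 584, the start lay in states 3 to 6 in 331 (56.7%), against 48.5% of all genes with known strand, both by the start of the gene record. Among the 186, the 3' end lay in state 16 or 17 in 48.4%, in state 18 in 24.7% and in state 8 in 15.6%.

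Genes wholly inside a member were few and short. There were 147 (0.715% of genes) in 135 members, and 116 such genes without the members of up to 12 kb between state 16 borders. The 147 had a median length of 3.33 kb against 17.6 kb for all genes, and a member can hold only genes shorter than itself. The longest were Ucp3, a mitochondrial carrier of muscle, at 13.4 kb, Serpinb9b, a protease inhibitor gene, at 13.2 kb, and Apol8 at 12.0 kb. Tshb, the beta subunit of thyrotropin, Serpina3b, Adipoq, which encodes the fat hormone adiponectin, Ambp, Bnipl, the coagulation factor gene F7 and Zscan10 followed, between 11.7 and 10.2 kb. A 21 kb member on chromosome 7 held the most genes, 3, with the apolipoprotein genes Apoc2 and Apoc4 and Gm44805. Next came members with 2 genes each, among them Fam243 with Smim34, 1700020A23Rik with Tmem239, and S100a7a with S100a8. Long noncoding RNA genes had an end in a member in 1145 of 12324 (9.29%), and tRNA genes in 3 of 386 (0.777%).

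The longest members lay in or across genes with varied roles. The longest, 43.4 kb at chr13:92640001-92683400, lay in the body of Serinc5, a membrane protein gene that restricts retroviruses, between a state 2 and a state 8 segment. Others of the 15 longest were inside Tcf4, an E protein gene (43 kb), Inpp4b, an inositol phosphatase gene (42.6 kb), Kcnq5, a potassium channel gene (41.8 kb), Knl1, a kinetochore gene (40.2 kb), Wwox (38.2 kb), Plod2 (37 kb), Ssh2 (35.6 kb) and Cers6, a ceramide synthase gene (34.8 kb). Hormad2 (38.6 kb), Mettl6 (37.4 kb) and Tex9 (35.8 kb) each had an end inside one. The 38.4 kb member at Ralgps1 held an end of Angptl2, and the 36.6 kb member at Ctse spanned ends of Ctse and Rab7b. A member of 35.6 kb (chr1:40415001-40450600) lay in Il1rl1, the receptor for interleukin 33, and with a further one covered 82.2% of that gene.

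**Figure D4:**
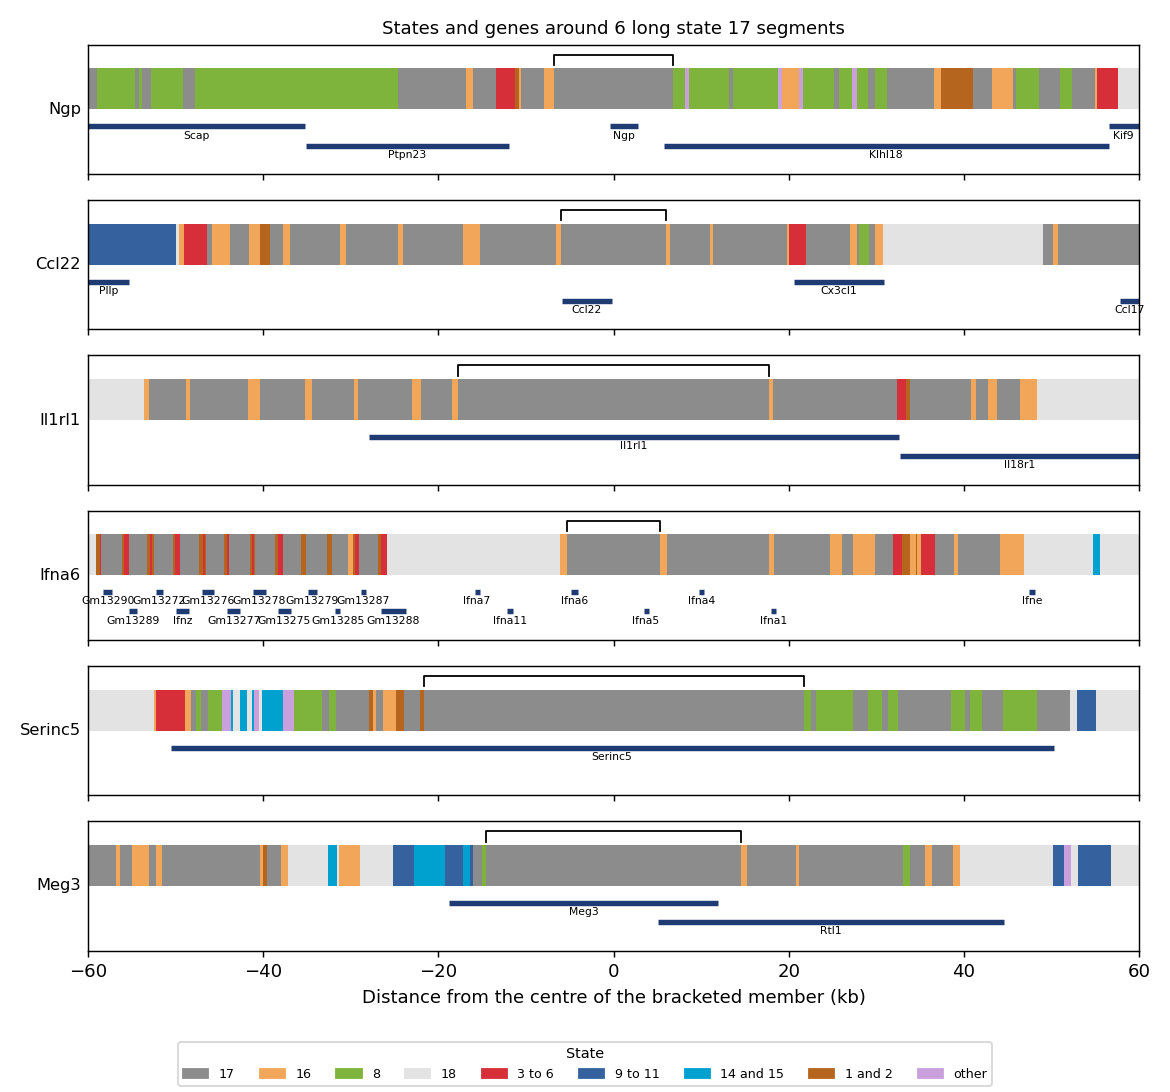
States (coloured bar) and genes (lines below it; protein-coding genes and Meg3) within 60 kb of the centre of a long state 17 segment, at 6 loci. The x axis is the distance from the centre of the bracketed segment in kb. The segments shown are 13.6 kb at Ngp, 12 kb at Ccl22, 35.6 kb at Il1rl1, 10.6 kb at Ifna6, 43.4 kb at Serinc5 and 29.2 kb at Meg3.

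Lists of mature blood cell genes had an end in a member in shares from 2.56% for erythroid genes to 19.05% for eosinophil, basophil and mast cell genes, and 0 of the listed regulators of HSCs and of development had one; the difference between lists was not tested. Of 38 neutrophil and monocyte genes, 6 had an end in a member (15.8%, exact 95% interval 6.02 to 31.3), against 5.56% of all genes. Ngp lay in a 13.6 kb member (16 to its left, 8 to its right), Lcn2 in one of 11.8 kb between states 6 and 5, S100a8 in one of 22.4 kb and Fcnb in one of 10.2 kb, both between state 16 borders. The collagenase gene Mmp8 had 1 end inside, and so had Ncf4, an NADPH oxidase subunit gene. Of 21 eosinophil, basophil and mast cell genes 4 had an end in a member (19.05%, interval 5.45 to 41.9). The mast cell chymase gene Cma1 lay wholly in a member of 11.6 kb. Prg2 and Prg3, the eosinophil major basic protein genes, shared 1 member of 15.6 kb, and Ms4a2, an IgE receptor subunit gene, had an end in one of 16.8 kb.

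Chemokine genes and lymphoid genes gave shares between those and the background. Of 54 chemokine and chemokine receptor genes 6 had an end in a member (11.1%). Wholly inside were Ccl17 (member of 19 kb) and Ccl22 (12 kb), ligands of Ccr4, the neutrophil attractant gene Cxcl1 (10.8 kb), Ccl5 (15.6 kb) and the scavenging receptor gene Ackr1 (20.8 kb); Ccl6 had an end in one of 11 kb. Of 35 T and NK cell genes 4 had an end inside (11.4%). They were Cd4 (20.2 kb member), Cd5 (14.2 kb), Klrd1 (11 kb) and Lck (11.2 kb), which encodes the kinase bound to CD4 and CD8. B cell genes gave 3 of 24 (12.5%), among them the coactivator gene Pou2af1 and Vpreb3.

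Among dendritic cell and macrophage genes, 2 of 31 (6.45%) had an end in a member, and these were Clec4d and Clec4e, lectin receptors for fungi and mycobacteria that shared 1 member of 18.2 kb. Cytokine and growth factor receptor genes gave 4 of 47 (8.51%), namely Csf2rb2, Ifnar1, Il12rb1 and Il1r1. Megakaryocyte and platelet genes gave 2 of 29 (6.90%), with the thrombospondin gene Thbs1 in a 28.6 kb member and the platelet ADP receptor gene P2ry12 in one of 11.6 kb. Erythroid genes gave 1 of 39 (2.56%), the spectrin gene Sptb, and interferon response genes 1 of 30 (3.33%), Gbp3. The housekeeping list also gave 1 of 30 (3.33%), Emc7.

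The HSC regulators gave 0 of 34 (interval 0 to 10.3) and developmental regulators 0 of 44 (0 to 8.04). With a 5 kb minimum, 11.8% of the HSC regulators had an end in a segment, against 12.8% of all genes. Any base was in a member in 6 of the 34 HSC genes (17.6%), near the 15% of all genes. Mecom, which encodes the HSC factor EVI1, hosted 5 members over 58.8 kb, and its relative Prdm16 hosted 5 over 71.6 kb. Zfp521 hosted 2, and Mllt3 and Vwf hosted 1 each.

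Genes of other tissues had shares in the same range as those of mature blood cells. Epithelial genes gave 5 of 33 (15.2%), with Esrp1, Krt8, Pkp3, St14 and Vil1. Liver genes gave 3 of 24 (12.5%), with Ambp wholly inside and an end of F2, the prothrombin gene, and of Pck1. Muscle genes gave 3 of 33 (9.09%), with Myog, Tnni1 and Tnnt2. Endothelium and stroma genes gave 2 of 22 (9.09%), Acta2 and Pdgfrb, and neuronal genes gave 1 of 22 (4.55%), Camk2a. In all, 12 of 18 lists had a share above that of all genes. The exact intervals of 17 of the 18 include 5.56%, and that of the neutrophil and monocyte list does not. The intervals were not adjusted for the number of lists. Which lists stood apart depended on the length minimum. At 5 kb the neutrophil and monocyte interval (11.4 to 40.2) included the 12.8% of all genes. The intervals of eosinophil, basophil and mast cell genes (18.1 to 61.6) and chemokine and chemokine receptor genes (17.98 to 43.6) lay above it. So did those of T and NK cell genes (14.6 to 46.3) and epithelial genes (13.3 to 45.5). That of developmental regulators (0 to 8.04) lay below it.

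Without the members of up to 12 kb between state 16 borders, 961 genes (4.67%) had an end in a member, and 10 of 18 lists were above that share. The neutrophil and monocyte list then gave 5 of 38 (13.2%, interval 4.41 to 28.1), which includes 4.67%. Eosinophil, basophil and mast cell genes gave 3 of 21 (14.3%), epithelial genes 3 of 33 (9.09%), T and NK cell genes 3 of 35 (8.57%), B cell genes 2 of 24 (8.33%), chemokine and chemokine receptor genes 3 of 54 (5.56%), megakaryocyte and platelet genes 1 of 29 (3.45%) and muscle genes 0 of 33. The remaining lists had the same shares as with those members.

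**Figure D5:**
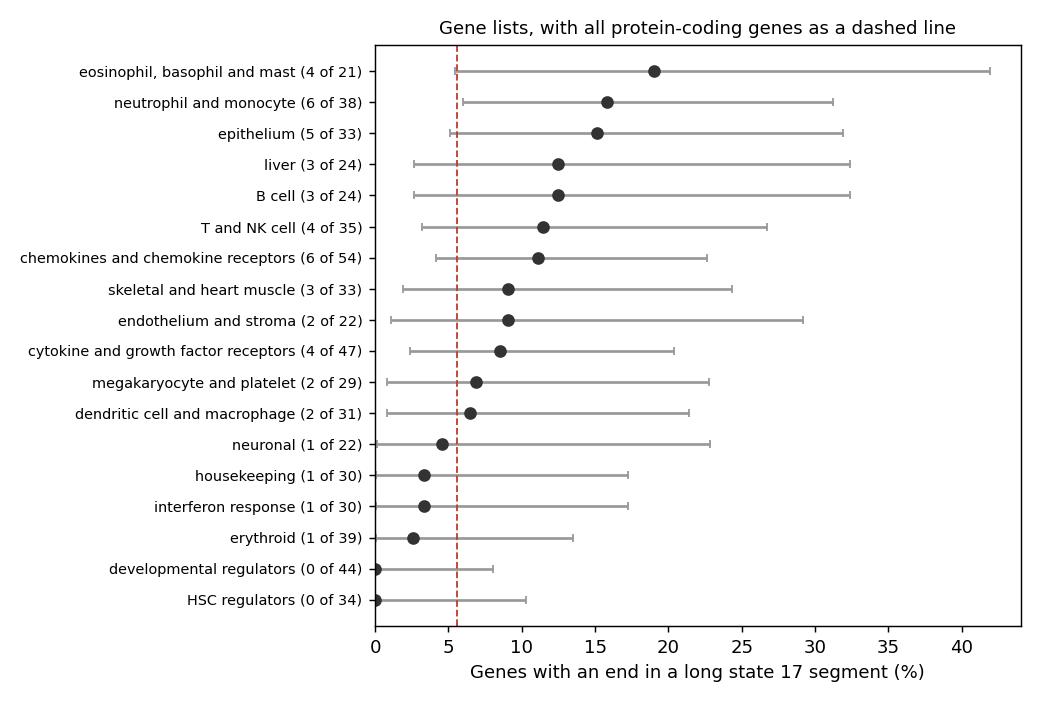
Share of each gene list with an end in a long state 17 segment (x axis, %), with exact 95% binomial intervals (counting error only) and the number of genes beside each name. The dashed line is the 5.56% of all protein-coding genes; the lists run from 19.05% for eosinophil, basophil and mast cell genes to 0% for HSC and developmental regulators.

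Clustered families differed widely. Of the olfactory and vomeronasal receptor genes 13 of 1454 (0.894%) reached into a member with an end, as did Zfp zinc finger genes with 11 of 388 (2.84%). C-type lectin genes gave 5 of 33 (15.2%), serpins 8 of 62 (12.9%) and interleukin and interleukin receptor genes 9 of 78 (11.5%). Of 18 type I interferon genes, taken by symbols that begin with Ifn, 5 (27.8%) lay wholly inside members on chromosome 4. Genes among them with other symbols were not counted, such as Gm13276 outside members and Gm13271 wholly inside one. Of all genes, 0.715% lay wholly inside a member and 5.56% had an end in one. Ifna2 and Ifnab were in a member of 10.2 kb, Ifna6 and Ifna5 in one of 10.6 kb and Ifna4 in one of 11.6 kb. All of these members lay between state 16 borders and were under 12 kb. Without such members, none of the interferon genes lay wholly inside. These genes are near-identical neighbouring copies, so their states are uncertain where reads could be shared, and Ifnb1 had both ends in state 18.

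At the imprinted Dlk1-Dio3 domain on chromosome 12, a member of 29.2 kb (chr12:109545201-109574400) covered most of Meg3, a maternally expressed noncoding RNA gene. Members held 86.3% of Meg3 and 53.9% of Rtl1, and none of Rian, Mirg, Dlk1 or Dio3. Outside members, Rian had 82.7% of its bases in state 18, Dlk1 56.4% in state 11 and 12.9% in shorter state 17 segments, Mirg 78.9% in state 18 and 12.8% in shorter state 17 segments, and Dio3 100% in state 11. Hairpins of miR-770 and miR-673 lay in the Meg3 member. A second member of 11.8 kb (chr12:109581001-109592800) held 8 hairpins, among them miR-431 and miR-433. A mature strand of each of these 4 hairpins is shown for this domain, from RefSeq, with seeds in capitals; no 2 share a seed.
mmu-miR-770-5p: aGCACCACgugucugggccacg
mmu-miR-673-5p: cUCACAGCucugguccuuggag
mmu-miR-431-5p: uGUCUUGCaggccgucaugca
mmu-miR-433-3p: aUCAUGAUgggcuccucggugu
All 4 are on the plus strand.

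The sequence around gene starts in members was poor in CpG. Of 20085 promoter windows on the 18 autosomes in the table, 391 (361 genes) had their start in a member. Their median GC content was 51% (quartiles 46 and 55), against 57% for all windows, and the median observed over expected CpG was 0.237, against 0.586. Per autosome the CpG ratio averaged 0.245 ± 0.041 for member starts and 0.589 ± 0.084 for all windows (SD, 18 autosomes), and both measures were lower for member starts on 18 of 18. A ratio of 0.6 or more was found in 3.84% of member windows, 48.9% of all windows and 77.8% of windows starting in states 3 to 6. Starts in shorter state 17 segments had 50.7% GC and a ratio of 0.213, those in state 16 had 48.7% and 0.199, and those in state 18 had 46% and 0.161.

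Letter motifs followed this composition in part. Searched on both strands and each counted whatever it overlapped, GGGCGG (GC box) was in 18.9% of member windows and 47.0% of all windows. CCGGAA (ETS core) was in 9.46% and 19.1%, CAGCTG (E-box) in 24.8% and 15.6%, TATAAA in 16.1% and 12.7%, and TTGCNNAA in 11.8% and 10.3%. Windows starting in shorter state 17 segments were close to member windows for GGGCGG (18.7%), CAGCTG (24.5%), TATAAA (17.3%) and TTGCNNAA (11.3%). TATAAA was in 26.4% of windows starting in state 18. GAGGAA (PU.1 core) was in 34.5% of member windows (exact 95% interval 29.8 to 39.5), 26.4% of windows starting in shorter state 17 segments (23.7 to 29.3) and 27.2% of all windows, but also in 36.2% of windows starting in state 16 and 30.4% of those in state 18. CCGGAA separated the same sets, at 9.46% (6.75 to 12.8) of member windows and 4.45% (3.25 to 5.93) of windows starting in shorter segments. For every other motif searched, including some not listed here, the intervals of member windows and of windows starting in shorter segments overlapped. The intervals were not adjusted for the number of motifs searched, so these separations do not show that either motif marks members. Windows of 1 gene can overlap, so they are not independent.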

How the data were processed

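The deposited unit, per the file headers and values, is a state number (other: a label from 1 to 18, not a level) for each segment of 200 bp bins, given as a dense and an expanded track; 8012 of 8012 members were found at the same place in both. Per the submitters' processing notes, the build was mm10 and the tools included HOMER, MACS2, deepTools and Bowtie2, with no version given. ChromHMM is named only in track and file names. Its version, its emissions and its input tracks were not given in the sources used here. Depth is unknown, and no floor that needs it is given.

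Genes, promoter windows and miRNAs came from RefSeq tables of GRCm38.p6, 1-based. Autosomal gene records starting in the first 3 Mb were left out. Strand came from the promoter table, which covers 18 autosomes. No test between groups was run, since the design holds 1 map; shares carry exact (Clopper-Pearson) 95% intervals for counting error only, and SDs over autosomes. Segment lookup was tested on simulated data. Python 3.11.15, numpy 2.4.6, pandas 2.3.3, scipy 1.17.1 and matplotlib 3.10.9 were used.

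Members and the 18 gene lists were chosen with earlier results of these data known. Named genes were those in the 15 longest members, up to 6 per list in alphabetical order (wholly inside before 1 end inside), the 10 longest genes wholly inside and the genes of the 5 members holding most (ties in file order). Host genes, interferon and imprinted genes, and miRNAs were named after their values were seen. A few named-rule genes are not reported here. Alternatives were length minimums of 5 and 20 kb, chromosome X, the expanded track, joined single-bin gaps, other gene sets, overlap rules and promoter rules. Leaving out members of up to 12 kb between state 16 borders was chosen after seeing the data.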

Additional observations from a re-analysis of the deposited data

How the results depend on the processing

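The members depend on the length minimum. At 5 kb there were 26825 segments (239.1 Mb), with 62.9% overlapping a gene, 2625 genes with an end inside and state 16 at 61.8% of borders. At 20 kb there were 621 segments (14.6 Mb), with 75.4% overlapping a gene, 169 genes with an end inside, 36 wholly inside, state 16 at 44.0% and state 8 at 41.1% of borders, and 6 lists above the share of all genes. With all annotated genes, 76.0% of members overlapped a gene, 2898 genes had an end inside and 949 were wholly inside. The overlap was 55.6% where at least 50% of a member had to be genic. Counting starts only gave 361 genes, and ends within 1000 bp gave 1734. State 16 held 59.1% of borders with chromosome X included and 61.2% with single-bin gaps joined. Without members of up to 12 kb between state 16 borders, 67.1% overlapped a gene, and state 16 and state 8 held 46.8% and 29.8% of borders. For the borders, that choice fixes the direction of the change. The other 33 of 57 recomputed summary values stayed within 1.5 times, the counting interval or 1 SD over autosomes, as did 70 of 90 list shares within their intervals. The 33 include the values from the expanded track. That track holds the same 8012 members, so those values are not independent checks. The cause of these shifts was not tested, beyond the longer or shorter set that each alternative makes by construction. No paired analysis was possible because the map is 1 segmentation with neither replicates nor HIRA KO values. Depth limits cannot be given.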

Other observations

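Antigen receptor V segments had an end in a member about as often as protein-coding genes did. The share wholly inside was 4.81% for V segments and 0.715% for protein-coding genes, a direction that the shortness of V segments favours. Other short records had like shares, at 4.87% for snRNA and 3.84% for snoRNA genes, and members cover 4.41% of autosomal bases. Wholly inside were 27 V and J segments, of which 7 were Ighv segments of the heavy chain locus on chromosome 12 and 6 were Trbv segments of the T cell receptor beta locus on chromosome 6. J segments had an end in a member in 10 of 82 (12.2%) and V segments in 20 of 374 (5.35%), against 5.56% of protein-coding genes. In the T cell receptor alpha and delta locus on chromosome 14, 1 member held Trdv5 together with 6 J segments, Traj59, Traj58, Traj57, Traj56, Traj53 and Traj52. Some V segments have close copies in the same locus, and their states are uncertain where reads could be shared.

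Any base was in a member in 7 of 22 endothelium and stroma genes (31.8%, exact 95% interval 13.9 to 54.9), against 15% of all genes, which the interval includes. The 7 were the endothelial genes Kdr, Emcn, Cdh5 and Flt1 and the smooth muscle and stromal genes Myh11, Acta2 and Pdgfrb. Kdr, the main receptor for VEGF, hosted 2 members over 29.6 kb of its 46.2 kb, Emcn, the endomucin gene, hosted 2 over 24 kb, and Cdh5, which encodes VE-cadherin, hosted 1 of 24 kb in 42.9 kb. Erythroid Epb42 hosted 1 member of 16.2 kb in a gene of 18.99 kb. Gene length differs between these lists and all genes, and its part in the share was not tested.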
